A study of Mus musculus with 20 samples.

Results

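The 32 genes described here belong to cholesterol and fatty acid synthesis, to the SREBP system that sets how strongly those enzymes are transcribed, and to the liver X receptors (LXR) with their targets. They were chosen by name as sterol and lipid synthesis, SREBP and LXR genes, and were found in the count table through their Ensembl identifiers. All 32 were among the 78258 genes of the table, and all 32 passed the filter on low counts that left 28564 genes for testing. By role they fall into 8 enzymes that lead from acetyl-CoA units to squalene, 10 enzymes that lead from squalene to cholesterol, 4 genes of the SREBP system, 5 fatty acid synthesis enzymes and 5 LXR receptors and targets.

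RNA was sequenced from dorsal root ganglia, which hold the cell bodies of the sensory neurons that supply the limb. The animals were 10 male mice, 5 per genotype, and a library was made from each side of every mouse, which gave 4 groups of 5 libraries. The knockout mice (cKO below) were Ahr fl/fl Thy1CRE-ERT2/EYFP: floxed alleles of the aryl hydrocarbon receptor gene, with Cre recombinase that tamoxifen activates, driven together with a yellow fluorescent reporter by the Thy1 promoter. Control mice were Ahr f/f or f/+ with no Cre named; their sample titles call them wildtype, while the genotype field and library names give ff. Every mouse of both genotypes received tamoxifen at 100 mg/kg into the abdomen on 5 days in a row, at 17 weeks of age. The sciatic nerve was cut 4 weeks later, and 1 day after the cut the L4 to L6 ganglia (lumbar levels 4 to 6) were removed, on the cut side (ipsilateral) and on the other side (contralateral). The comparator for injury was therefore the uncut side of lesioned mice and not the ganglia of uninjured mice. The Thy1 promoter limits Cre to the cells that use it, while the libraries were made from whole ganglia.

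Cells make cholesterol from acetyl-CoA through mevalonate, isoprenoids and squalene, and make fatty acids from the same acetyl-CoA. When sterol in the endoplasmic reticulum is low, SREBP proteins are released from INSIG, cut in the Golgi and sent to the nucleus, where they raise transcription of nearly all of these enzymes together with INSIG1 itself. When sterol is high, oxysterols activate LXR, which raises the transporters that export cholesterol. In peripheral nerve, cholesterol and fatty acids are needed in bulk for myelin and for axon membrane.

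A library held between 76.2 M and 118.5 M exonic counts (M, mega), and levels are given below as CPM (a gene's counts per 1 M counts of its library, with libraries scaled by the TMM method). Atf3 and Sox11, genes that sensory neurons switch on after axon injury, were higher on the cut side by 5.23 and 2.90 on the log2 scale in control mice and by 5.50 and 3.13 in cKO mice. Ahr itself averaged 24.2 ± 2.10 CPM (SD, n = 5) in control and 20.4 ± 0.536 CPM in cKO contralateral ganglia, a log2 difference of -0.25 that was not called (edgeR adjusted p = 0.10), although the ranges did not overlap. On the cut side Ahr stood at 34.4 ± 2.86 and 31.9 ± 2.94 CPM. The floxed part of Ahr is not named in the labels, so these counts over the whole gene do not measure the deletion. Markers of sensory neurons were abundant, with 13 genes summing to 12797 to 15557 CPM per library. Markers of other cell types were present as well, so that in this bulk tissue a lower level can mean fewer cells of a type or less RNA per cell, and the data cannot tell these apart.

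The 32 genes spanned a wide range of levels. Per kilobase of merged exons, the most abundant in control contralateral ganglia were the stearoyl-CoA desaturases Scd2 at 322 and Scd1 at 232 CPM per kilobase, which put the double bond into newly made fatty acids. Acly (ATP citrate lyase, the source of cytosolic acetyl-CoA) followed at 149 and Hmgcs1 (cytosolic HMG-CoA synthase, which opens the mevalonate pathway) at 132 CPM per kilobase. The lowest were Mylip at 4.11 and Nr1h3 at 1.95 CPM per kilobase. Scd1 and Scd2 together took 32% to 37.5% of the summed CPM of the 32 genes in the 20 libraries. How reads shared with close relatives (Scd1 with the other Scd genes, Acat2 with Acat3, Idi1 with Idi2) were assigned is not given in the sources used here, which leaves those levels less certain.

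**Figure D1:**
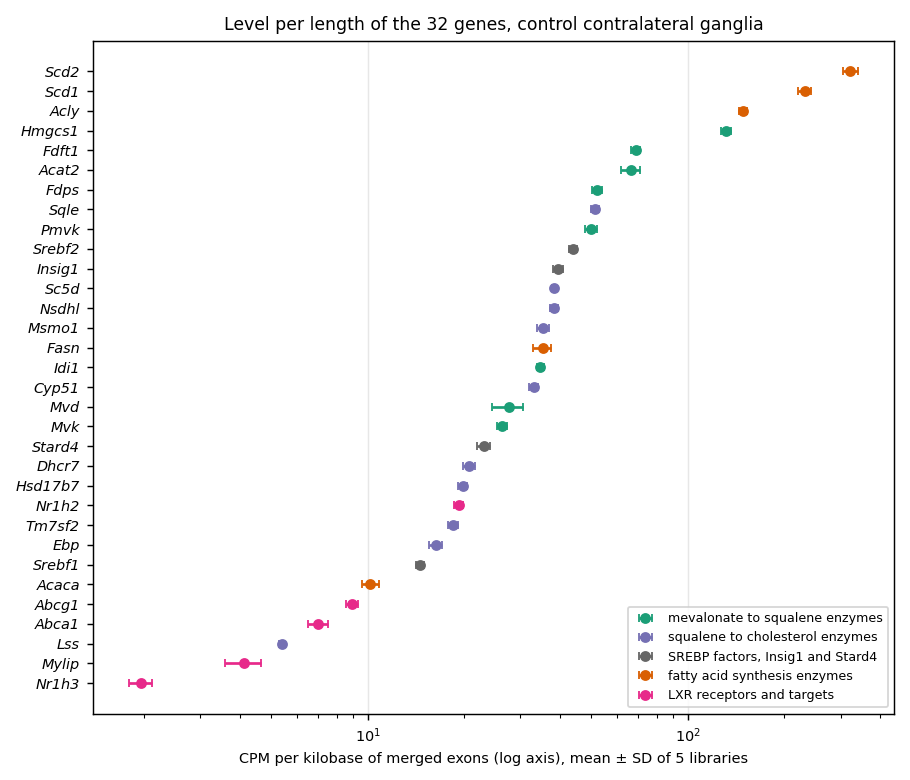
Level of each of the 32 genes in the 5 control contralateral libraries, as CPM per kilobase of merged exons on a log axis, with the mean as a point, the SD as a bar and the role as colour. Scd2 and Scd1 stand at the top at 322 and 232, and the LXR genes lie in the lower part with Nr1h3 at 1.95.

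The first comparison asked what nerve transection did, by setting the cut side against the uncut side within each genotype. In control mice 13 of the 32 genes were higher on the cut side and 1 was lower at an edgeR adjusted p under 0.05, and 18 were not called. Of all genes tested, 13.8% were called higher and 16% lower in that comparison, against 40.6% and 3.12% of the 32. In cKO mice 19 were higher and 1 was lower, or 59.4% and 3.12%, where 16.2% of all genes were called higher and 15.1% lower. All 13 genes called higher in control mice were also called higher in cKO mice, 40.6% of the 32 where 11.4% of all genes were called higher in both. Abcg1 was the gene called lower in both genotypes, as were 9.96% of all genes. This fit did not use the pairing of sides by mouse. With each mouse as a block, 15 of the 32 were called higher and 2 lower in control mice. In cKO mice 19 and 1 were called with the block. The shares of all genes in the blocked fit were 14.1% and 15.9% in control mice and 16.4% and 15.2% in cKO mice. None of these shares was matched to the level of the 32 genes. In a fit without block or genes under a mean of 1 CPM, 7846 of 19364 genes were called in control mice, beside 17 of the 32. In cKO mice 8282 of the 19364 were called there, beside 20 of the 32. The ranges of the 5 libraries of each side did not overlap for 13 genes higher and 3 lower in control mice, beside 11.3% and 12.3% of all genes, and for 9 higher and 1 lower in cKO mice, beside 11.9% and 8.32%. The median log2 change of the 32 was 0.11 in control and 0.18 in cKO mice, beside -0.0047 and -0.03 over all genes tested. The changes were mostly small: Abca1 rose 1.95-fold and 2.26-fold, Hsd17b7 1.60-fold and 1.69-fold, and no other called change was as large.

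**Figure D2:**
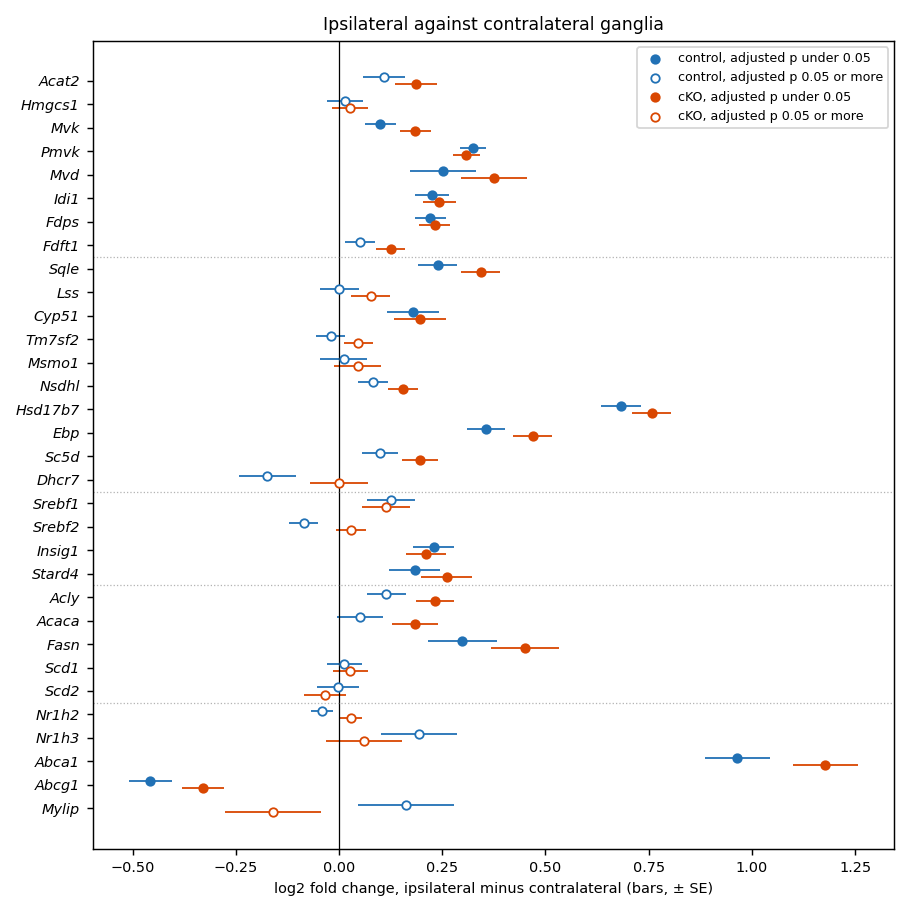
Log2 fold change of the cut against the uncut side for the 32 genes in control (blue) and cKO (orange) mice, with bars of ± 1 standard error, filled points for an adjusted p under 0.05 and dotted lines between the roles. Abca1 and Hsd17b7 lie farthest to the right, Abcg1 is the filled pair left of 0, and Hmgcs1, Scd1 and Scd2 sit near 0.

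Among the 8 enzymes from acetyl-CoA to squalene, 5 rose in control mice and 7 in cKO mice, and none was called lower. Beside them, 13.8% of all genes were called higher and 16% lower in control mice, and 16.2% and 15.1% in cKO mice. The largest rises among the 8 were in Pmvk and Mvd, which phosphorylate phosphomevalonate and then decarboxylate the product to give the first isoprenoid unit. Pmvk stood at 88.7, 89.1, 86.3, 82.1 and 80.8 CPM in the contralateral ganglia of control mice H62, H63, H65, H96 and H97, and at 110.3, 106, 109.6, 106 and 103 CPM in their ipsilateral ganglia. In cKO mice H61, H64, H95, H99 and H100 it stood at 86.0, 85.6, 86.0, 82.7 and 80.6 CPM contralaterally and at 108, 103, 106, 102 and 102 CPM ipsilaterally. Every ipsilateral library lay above every contralateral one in both genotypes. The log2 change of Pmvk was 0.32 ± 0.0316 (SE) in control mice (edgeR adjusted p = 8.901e-08) and 0.31 ± 0.0316 in cKO mice (adjusted p = 1.559e-07).

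For Mvd the same mice, in the same order, gave 56.6, 52.4, 55.0, 50.1 and 42.1 CPM contralaterally and 64.3, 59.4, 65.1, 59.0 and 57.3 CPM ipsilaterally among controls. The cKO mice gave 47.6, 40.1, 53.1, 51.6 and 46.7 CPM contralaterally and 64.4, 52.9, 66.9, 63.8 and 62.4 CPM ipsilaterally. Mvd was higher on the cut side in all 10 mice, and the sides did not overlap in controls but met in cKO mice, where H64 was lowest on both sides. Its log2 change was 0.25 ± 0.0809 in control mice (edgeR adjusted p = 0.0228) and 0.38 ± 0.0809 in cKO mice (adjusted p = 0.00126). The control call of Mvd was lost with no filter on low counts and without H96 (adjusted p = 0.0507 and 0.0515).

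Idi1, the isomerase of the first isoprenoid units, rose by 0.23 and 0.24 on the log2 scale in control and cKO mice, from 121 ± 3.21 to 142 ± 6.31 CPM and from 121 ± 3.87 to 143 ± 9.44 CPM. Fdps, which joins these units into farnesyl diphosphate, rose by 0.22 and 0.23 on the log2 scale. Of its exon length 26.7% overlaps Gm43738 on the same strand, and how reads there were assigned is not given in the sources used here. Mvk, the mevalonate kinase, rose by 0.10 in control mice, just past the threshold (edgeR adjusted p = 0.0457), and by 0.18 in cKO mice. The control call of Mvk held in 10 of 18 alternatives, with adjusted p up to 0.124 without H97. Acat2, which condenses acetyl-CoA into acetoacetyl-CoA, and Fdft1, which makes squalene, were called in cKO mice at 0.19 and 0.13, and both calls were lost without H100 (edgeR adjusted p = 0.0574 and 0.0757). In control mice their log2 changes were 0.11 and 0.05 and were not called. With each mouse as a block, which compares the sides within a mouse, Acat2 was also called in control mice (log2 change 0.11, edgeR adjusted p = 0.0235). Exons of Fdft1 overlap those of Ctsb on the opposite strand over 18.3% of their length, and the strand setting of the counting is not given in the sources used here.

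Hmgcs1 did not share these changes: it averaged 606 ± 21.7 and 613 ± 17.0 CPM on the 2 sides of control mice and 597 ± 40.4 and 608 ± 31.2 CPM in cKO mice. Its log2 changes of 0.01 and 0.03 had a standard error of 0.0438, and it was higher on the cut side in 3 of 5 mice of each genotype. Exons of Gm48342 on the opposite strand overlap 12.1% of the exon length of Hmgcs1. Summed over the 8 enzymes, the level went from 1613 ± 47.1 to 1736 ± 39.3 CPM in control mice and from 1570 ± 68.4 to 1731 ± 82.8 CPM in cKO mice, higher on the cut side in all 5 mice of each genotype. Of the 32 promoters, 25 were in the RefSeq table used (GRCm38.p6, 250 bases before to 50 after a gene's start), as 31 windows. The sterol regulatory element to which SREBP binds was searched as TCACNCCAC on both strands and was found in 1.24% of 32851 windows and in 1 of the 31. Only this exact pattern was searched, so a window without a match may hold a form of the element with other letters. That window was the one of Hmgcs1, shown because it carries the element while the gene was called in neither genotype. The match begins 137 bases before the start, and the stretch is chr13:119690188-119690247 on the plus strand, with the element in capitals.
Hmgcs1: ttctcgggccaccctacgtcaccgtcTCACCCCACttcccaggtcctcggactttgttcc

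Of the 10 enzymes from squalene to cholesterol, 4 rose in control mice and 6 in cKO mice, and none was called lower. The shares of all genes were 13.8% higher and 16% lower in control mice and 16.2% and 15.1% in cKO mice. Hsd17b7 had the largest change of all 18 sterol enzymes. It reduces the keto group left on the sterol ring when a methyl group has been removed. In control mice it was at 100.2, 104, 105, 98.3 and 96.9 CPM contralaterally and at 175, 161, 172, 149.9 and 151 CPM ipsilaterally. In cKO mice it was at 101, 87.4, 101, 105 and 95.1 CPM contralaterally and at 170.5, 159, 169, 167 and 162 CPM ipsilaterally. The sides were far apart in both genotypes, with the highest contralateral library at 105 CPM and the lowest ipsilateral library at 149.9 CPM. The rise was 1.60-fold in control mice (log2 change 0.68 ± 0.0479, edgeR adjusted p = 6.256e-10) and 1.69-fold in cKO mice (0.76 ± 0.0479, adjusted p = 1.032e-10). No exon of another annotated gene overlaps those of Hsd17b7.

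The promoter window of Hsd17b7, shown as that of the sterol enzyme with the largest change, held 3 matches to CCAAT, the box bound by NF-Y, which works with SREBP on many sterol genes. CCAAT was searched on both strands and was present in 37.4% of all windows and in 67.7% of the members' windows. GGGCGG, the box bound by Sp1, was present in 35.7% and 71.0%. CCAAT was in the promoters of 9 of the 10 matched genes that rose in both genotypes and of 8 of the 10 matched genes called in neither, and GGGCGG was in 8 of 10 of each. With both boxes in most genes of each set, these counts had little room to differ, and a link to the rises was not tested. A stretch of the Hsd17b7 window, chr1:169969186-169969245 on the minus strand of GRCm38.p6, is given with the match nearest the start in capitals, read on the opposite strand as ATTGG and 12 bases before the start.
Hsd17b7: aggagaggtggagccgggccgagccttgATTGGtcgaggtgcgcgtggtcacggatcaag

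Ebp, the isomerase that moves a double bond within the sterol ring, was at 38.6, 38.7, 39.2, 36.0 and 35.6 CPM contralaterally and 49.4, 45.3, 49.7, 49.5 and 46.8 CPM ipsilaterally in the control mice. The cKO mice had 32.6, 32.8, 38.7, 36.2 and 33.3 CPM contralaterally and 45.8, 46.6, 48.3, 49.4 and 50.2 CPM ipsilaterally. No library of the uncut side reached any library of the cut side. The log2 change of Ebp was 0.36 ± 0.0467 in control mice (edgeR adjusted p = 4.777e-06) and 0.47 ± 0.0467 in cKO mice (adjusted p = 1.057e-07).

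Sqle, squalene epoxidase, a rate-limiting enzyme of the later pathway, was at 289.8, 284, 294, 275 and 281 CPM contralaterally and 347, 332, 350.0, 339 and 312 CPM ipsilaterally in control mice. In cKO mice the values were 276, 229.9, 267, 292 and 261 CPM contralaterally and 326, 327, 338, 343 and 347 CPM ipsilaterally. The contralateral cKO libraries were spread more widely than the control ones, with H64 lowest and H99 highest, and the sides again did not overlap. Its log2 change was 0.24 ± 0.0467 in control mice (edgeR adjusted p = 4.518e-04) and 0.34 ± 0.0468 in cKO mice (adjusted p = 7.708e-06).

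**Figure D3:**
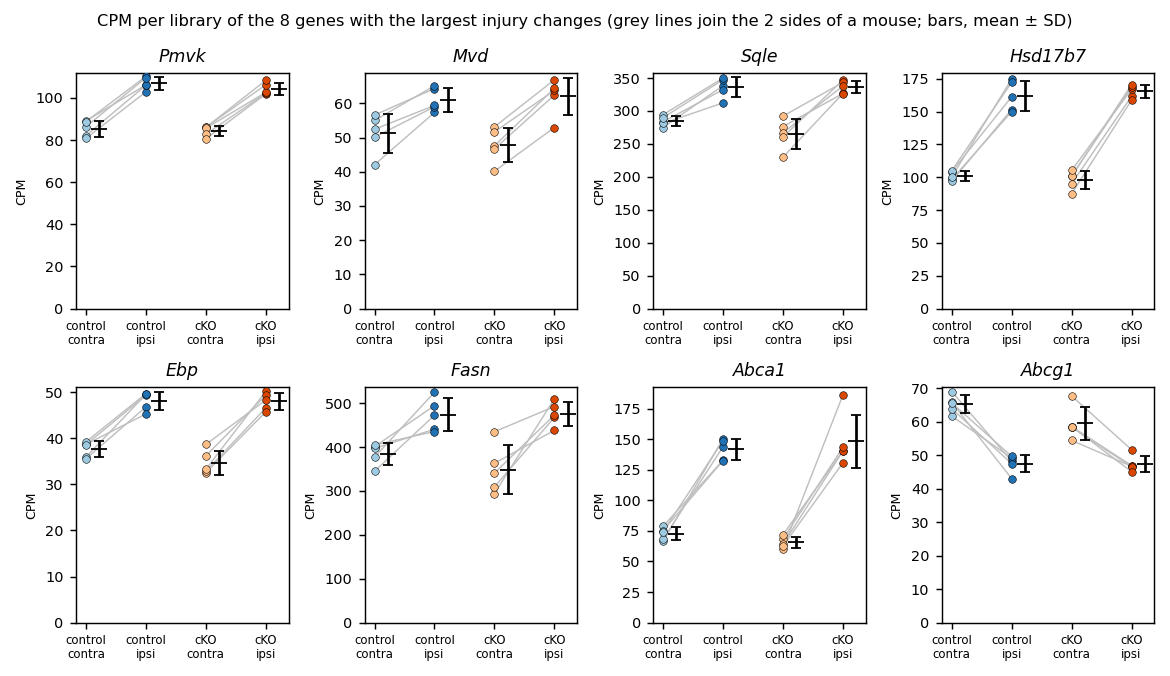
CPM per library of the 8 genes with the largest changes among those called in both genotypes, by group, with grey lines joining the sides of a mouse and bars for the mean ± SD of 5 libraries, on axes that start at 0. In 7 panels the lines climb from the uncut to the cut side in every mouse, and in the panel of Abcg1 every line falls.

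Cyp51, the lanosterol demethylase, rose by 0.18 (edgeR adjusted p = 0.0377) and 0.20 (adjusted p = 0.0224) on the log2 scale, in all 5 mice of each genotype. Its call held in 12 of 18 alternatives in control mice, with adjusted p up to 0.102 without H62, and in 16 of 18 in cKO mice, up to 0.0921 without H100. Nsdhl, a dehydrogenase of the step that removes methyl groups, and Sc5d, a sterol desaturase, were called in cKO mice at 0.15 and 0.20. In control mice their log2 changes were 0.08 and 0.10 and were not called, though both genes were higher on the cut side in 5 of 5 mice. With mouse as a block Sc5d was called in control mice too (edgeR adjusted p = 0.0189). Nsdhl stayed uncalled in control mice in 12 of 18 alternatives, with adjusted p from 0.00795 to 0.237, and was called among others with DESeq2 (0.0384). Lss, which closes the ring to give lanosterol, Tm7sf2, a sterol reductase, and Msmo1, the methyl oxidase, were called in neither genotype, with log2 changes between -0.02 and 0.08. Of Tm7sf2's exon length, 12.1% overlaps Vps51 on the same strand.

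Dhcr7, which reduces the last precursor in one of the branches to cholesterol, had the lowest fitted change of the 18 sterol enzymes. It went from 120.5 ± 5.47 to 107 ± 4.44 CPM in control mice, lower on the cut side in 5 of 5 mice and with no overlap, at a log2 change of -0.17 ± 0.0700 that was not called (edgeR adjusted p = 0.0697). With mouse as a block the same difference was called (log2 change -0.17, edgeR adjusted p = 0.00238). In cKO mice Dhcr7 averaged 109 CPM on both sides, and the difference between genotypes in the injury response was not called (interaction 0.17 ± 0.0990, edgeR adjusted p = 0.563, and 0.353 with mouse as a block).

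Summed over the 18 sterol enzymes, CPM went from 2953 ± 73.3 to 3225 ± 102 in control mice, a rise of 9.23% ± 2.90 (SD, n = 5 mice), and from 2852 ± 165 to 3236 ± 146 in cKO mice, a rise of 13.6% ± 3.99. The lowest rise of any mouse was 5.36% and the highest 19.7%. All 10 mice therefore had a higher summed level on the cut side, by a small fraction of the total. These sums are descriptions and carry no test.

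Of the 4 SREBP system genes, Insig1 and Stard4 rose in both genotypes, and Srebf1 and Srebf2, which encode the factors, were not called. Over all genes 11.4% were called higher in both. Insig1, which holds SREBP in the endoplasmic reticulum and is itself an SREBP target, went from 122 ± 4.64 to 142 ± 7.0 CPM in control mice and from 123 ± 8.32 to 142 ± 8.88 CPM in cKO mice, log2 changes of 0.23 and 0.21. Stard4, which carries sterol between membranes and is also an SREBP target, rose by 0.18 (edgeR adjusted p = 0.0286) and 0.26 (adjusted p = 0.00251) on the log2 scale. The control call of Stard4 was lost without H62, H63, H65 or H97, at adjusted p of 0.0646, 0.0588, 0.0574 and 0.0764. Both were higher on the cut side in all 10 mice. Srebf1, the factor tied most closely to fatty acid genes, was at 81.9 ± 2.39 and 89.3 ± 7.61 CPM in control mice and 79.2 ± 7.15 and 85.7 ± 4.66 CPM in cKO mice. Srebf2, the factor tied most closely to sterol genes, was at 315 ± 9.41 and 297 ± 6.11 CPM in control mice, lower on the cut side in 5 of 5 mice without overlap, and at 293 ± 19.0 and 299 ± 6.97 CPM in cKO mice. Its log2 change in control mice, -0.09 ± 0.0361, missed the threshold (edgeR adjusted p = 0.081).

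Of the 5 fatty acid enzymes, 1 rose in control mice and 3 in cKO mice, and none was called lower. All genes gave 13.8% higher and 16% lower calls in control mice and 16.2% and 15.1% in cKO mice. The control count of 1 was near that share. Fasn, fatty acid synthase, was the gene that rose in both genotypes. In control mice it was at 377, 401, 405, 345 and 397 CPM contralaterally and 525, 495, 436, 473 and 441 CPM ipsilaterally. In cKO mice it was at 363, 294, 341, 435 and 309 CPM contralaterally and 438, 510.1, 473, 493 and 468 CPM ipsilaterally. The sides did not overlap, but the contralateral cKO library of H99 came within a few CPM of the lowest ipsilateral one. The log2 change was 0.30 ± 0.0828 in control mice (edgeR adjusted p = 0.00899) and 0.45 ± 0.0829 in cKO mice (adjusted p = 2.776e-04). Without mouse H62 the control change was 0.25 and was no longer called (edgeR adjusted p = 0.0545).

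Acly was at 785 ± 21.9 and 850.0 ± 35 CPM in control mice and at 726 ± 65.8 and 854 ± 15.8 CPM in cKO mice. It was called in cKO mice (log2 change 0.23, edgeR adjusted p = 5.825e-04) and not in control mice (0.11, adjusted p = 0.0711), where every mouse was nevertheless higher on the cut side. The control result of Acly depended on the setting: it stayed uncalled in 10 of 18 alternatives, with adjusted p from 0.00929 to 0.175, and was called among others with DESeq2 (0.0305) and with mouse as a random block in limma-voom (0.0413). Acaca, acetyl-CoA carboxylase, which commits acetyl-CoA to fatty acids, was called in cKO mice at 0.18 and stood at 0.05 in control mice. Its cKO call was lost without H64 and without H100 (edgeR adjusted p = 0.0985 and 0.0612). Scd1 and Scd2, the most abundant of the 32 per length, stayed close to their contralateral levels. Scd1 averaged 1133 ± 50.5 and 1143 ± 38.3 CPM in control mice and 1070 ± 67.2 and 1090 ± 39.4 CPM in cKO mice. Scd2 averaged 1761 ± 97.5 and 1759 ± 85.6 CPM in control mice and 1707 ± 117 and 1668 ± 84.0 CPM in cKO mice. Their log2 changes lay between -0.03 and 0.03 with standard errors of 0.0428 and 0.0508.

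Among the 5 LXR genes the 2 cholesterol exporters moved in opposite directions. Abca1, which loads cholesterol onto lipid-poor apolipoproteins, had the largest rise of the 32. It was at 74.5, 66.4, 75.2, 68.3 and 78.9 CPM contralaterally and at 149, 150.4, 133, 144 and 133 CPM ipsilaterally in control mice. In cKO mice it was at 68.4, 60.5, 64.2, 72.0 and 62.7 CPM contralaterally and at 143, 186, 141, 140.5 and 131 CPM ipsilaterally. The sides were widely separated in both genotypes, and the ipsilateral cKO library of H64 stood above the other ipsilateral libraries. Abca1 rose 1.95-fold in control mice (log2 change 0.96 ± 0.0786, edgeR adjusted p = 1.282e-08) and 2.26-fold in cKO mice (1.18 ± 0.0790, adjusted p = 5.732e-10).

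Abcg1, which exports cholesterol to mature lipoproteins, was at 65.7, 65.9, 64, 61.7 and 69.1 CPM contralaterally and 49.7, 43.1, 47.5, 49.2 and 48.2 CPM ipsilaterally in control mice. In cKO mice it was at 58.6, 54.5, 58.4, 67.8 and 58.6 CPM contralaterally and 45.1, 46.7, 46.6, 51.7 and 46.9 CPM ipsilaterally. Every ipsilateral library was below every contralateral one, and H99 was the highest cKO library on both sides. Abcg1 fell by 0.46 ± 0.0515 on the log2 scale in control mice (edgeR adjusted p = 6.764e-07) and by 0.33 ± 0.0514 in cKO mice (adjusted p = 4.024e-05).

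The receptors themselves were not called. Nr1h2 (LXR beta) stood between 62.7 and 65.6 CPM in all 4 group means. Nr1h3 (LXR alpha) was low, at 4.91 ± 0.403 and 5.62 ± 0.562 CPM in control mice and 5.29 ± 0.809 and 5.51 ± 0.350 CPM in cKO mice. Mylip, an LXR target that marks lipoprotein receptors for degradation, had log2 changes of 0.16 ± 0.117 in control and -0.16 ± 0.116 in cKO mice, neither called. The DR4 arrangement, a repeat of the half-site that LXR binds together with the retinoid X receptor, was searched on both strands as GGTNA, any 5 bases and GGTNA again. It was found in 0.718% of all windows and in 3 of the members' 31, those of Abca1, Fasn and Srebf1. A match was thus in 2 of the 10 matched genes that rose in both genotypes and in 1 of the 10 called in neither, Srebf1. All 3 are shown, and the capitals mark the match, which in each reads on the opposite strand. The Abca1 stretch is chr4:53159926-53159985, the Fasn stretch chr11:120824736-120824795 and the Srebf1 stretch chr11:60210617-60210676, all on the minus strand of GRCm38.p6. The matches lie 67, 225 and 182 bases before the start in Abca1, Fasn and Srebf1.
Abca1: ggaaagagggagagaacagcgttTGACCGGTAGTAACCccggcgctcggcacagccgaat
Fasn: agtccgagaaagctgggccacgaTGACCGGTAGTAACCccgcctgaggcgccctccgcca
Srebf1: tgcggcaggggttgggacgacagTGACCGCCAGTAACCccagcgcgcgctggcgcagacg

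The 15 matched bases were identical in Abca1 and Fasn. Srebf1 differed from both by G7C and T8C, counted from 1 at the first capital, Abca1 or Fasn first, in the spacer between the half-sites. This window is one of several that the table holds for Srebf1. A match describes the letters only, and no binding was measured. Promoters of Abcg1, Fdft1, Fdps, Scd1, Scd2, Sqle and Stard4 were not used here.

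Some markers of other cells were also called with injury, where 13.8% of all genes were called higher and 16% lower in control mice and 16.2% and 15.1% in cKO mice. Of 7 satellite glia markers 3 were called higher and 1 lower in control mice and 2 higher and 1 lower in cKO mice. Their summed level was 1084 to 1182 CPM in control contralateral and 1266 to 1406 CPM in control ipsilateral libraries, and 1056 to 1275 and 1244 to 1274 CPM in cKO libraries. Sensory neuron markers were called lower for 5 of 13 in control and 3 of 13 in cKO mice. Macrophage and endothelial markers were called higher in control mice for 2 of 12 and 3 of 7 and in cKO mice for 0 of 12 and 0 of 7, and the macrophage count in control mice was near the share of all genes. None of 10 myelinating Schwann cell markers was called in either genotype, at sums of 3478 to 5072 CPM. The 8 fibroblast markers went from 987 ± 244 to 1220.3 ± 212 CPM in control mice, with 0 of 8 called by edgeR and 1 at an unadjusted p under 0.05, and from 1613 ± 604 to 1157 ± 265 CPM in cKO mice, with 1 of 8, Dpt, called lower. Their sum fell in cKO mice H61, H64, H95 and H100 and rose in H99, with H64 going from 2316 to 1141 CPM and H95 from 2028 to 1118 CPM. The 10 adipocyte markers summed to 3.24 to 134 CPM, with Lep at 0 in some libraries, and none was called. The part of these cells in the changes of the 32 genes was not tested.

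The second comparison set cKO against control mice on each side. On the uncut side none of the 32 genes was called with edgeR, DESeq2 or limma-voom, where 0.0735% of all genes were called with edgeR. At an unadjusted p under 0.05 edgeR gave 7 of the 32 genes, beside 17.5% of all genes, and the count was near that share. These 7 were Sqle, Tm7sf2, Ebp, Srebf2, Acly, Acaca and Abcg1, all lower in cKO mice by 0.08 to 0.13 on the log2 scale. Of all 32, 27 had a log2 difference below 0, with a median of -0.064 where the median of all genes was -0.013. The share of all genes below 0 was not counted. The extremes were Abca1 at -0.15 ± 0.0783 and Mylip at 0.24 ± 0.117, and the ranges overlapped for all 32, where they did not for 1.52% of all genes.

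Within the cKO contralateral group many of the 32 genes ranked the libraries alike. H64 was the lowest of the 5 for 22 of the 32 genes and for 15 of the 18 sterol enzymes, and H99 was the highest for 19 of the 32 and 11 of the 18. The share of all genes with this order was not counted, so the order may not be particular to the 32. The summed sterol enzymes stood at 2902, 2609, 2919, 3047.5 and 2781 CPM in H61, H64, H95, H99 and H100, against 2870 to 3028 CPM in control contralateral libraries. Over the same 5 libraries the 8 fibroblast markers summed to 1036, 2316, 2028, 948 and 1736 CPM, against 815 to 1375 CPM in controls. H64 thus had the lowest sterol enzyme level and the highest fibroblast marker level. H95, next highest for fibroblast markers at 2028 CPM, was also next highest after H99 for sterol enzymes at 2919 CPM. Fibroblast markers were above 0 in log2 difference for 8 of 8 genes, with a median of 0.89, and none was called. Neuron markers summed to 13094 to 15557 CPM in these libraries, highest in H99, and macrophage markers to 134 to 376 CPM, highest in H64. Neutrophil markers summed to 31.2 CPM in H99, the lowest, and to 278 CPM in H64, the highest, against 52.9 to 194 CPM in control contralateral libraries. Adipocyte markers summed to 134 CPM in H99 and to 7.12 to 45.4 CPM in the other 4 libraries of the group. Muscle markers, at 5.57 to 63.1 CPM in the other libraries of the group, reached 1698 CPM in H100. The part of these cells in the genotype difference was not tested.

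**Figure D4:**
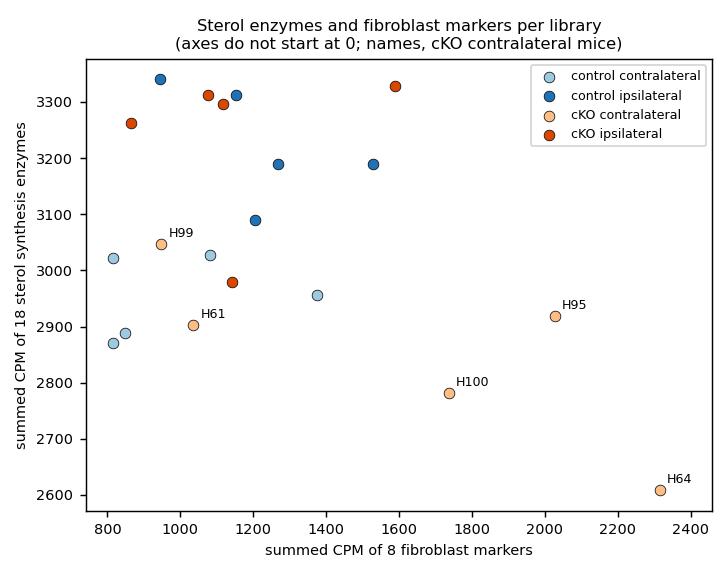
Summed CPM of the 18 sterol enzymes against summed CPM of 8 fibroblast markers, with a point per library and colours for the 4 groups, on axes that do not start at 0. The contralateral cKO libraries are named by mouse, with H99 at 948 and 3047.5, H64 at 2316 and 2609 and H95 at 2028 and 2919. No library of the other groups exceeds 1588 for the markers.

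The count on the uncut side depended on H99. Without that mouse 8 of the 32 genes were called between genotypes with edgeR, 1 higher in cKO mice and 7 lower, where 3326 of 28818 genes were called in all. Mylip was then higher by 0.33, and Sqle, Dhcr7, Srebf2, Acly, Acaca, Fasn and Abcg1 were lower with log2 differences of -0.14, -0.21, -0.14, -0.16, -0.17, -0.23 and -0.18. Leaving out any of the other 9 mice gave 0 calls among the 32.

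On the cut side again none of the 32 was called between genotypes with edgeR, DESeq2 or limma-voom, where 0.007% of all genes were called with edgeR. At an unadjusted p under 0.05 there were 2, beside 2.36% of all genes: Lss, higher in cKO mice by 0.14 ± 0.0473, and Nr1h2, higher by 0.07 ± 0.0270. Of the 32 differences 19 were above 0 and 13 below, with a median of 0.0073. The ranges of the genotypes overlapped for all 32 genes, where they did not for 0.599% of all genes. The summed sterol enzymes were 3090 to 3340 CPM in control and 2979 to 3329 CPM in cKO ipsilateral libraries, ranges that overlap over most of their length.

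**Figure D5:**
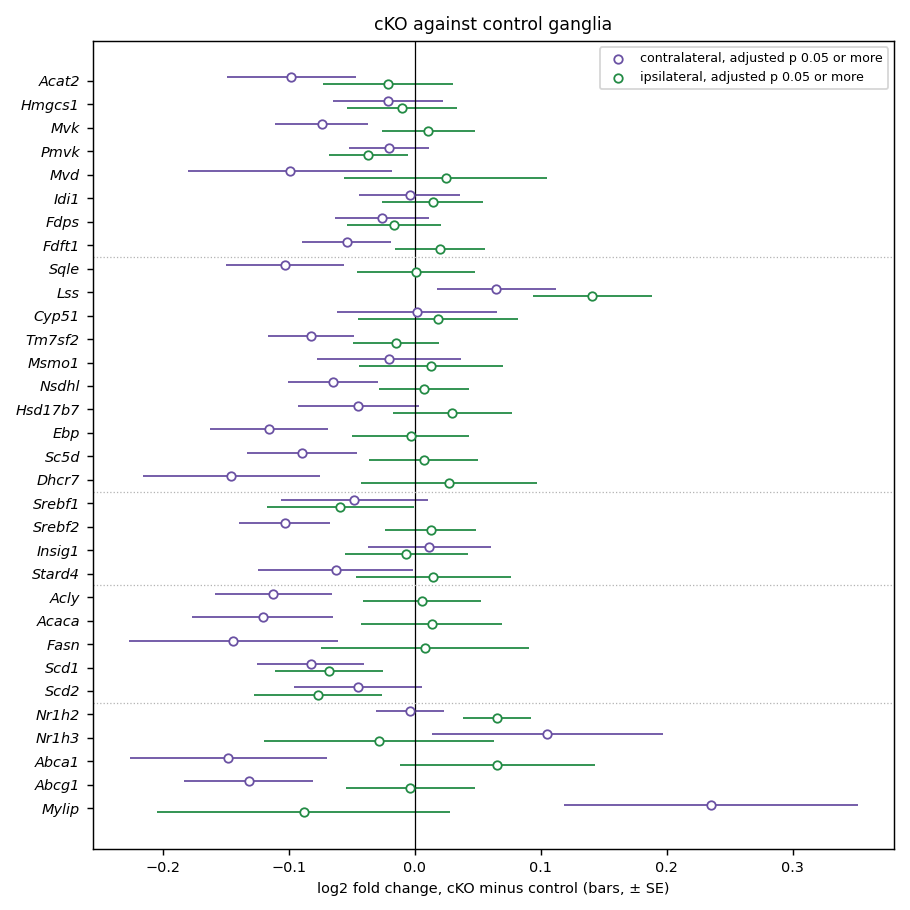
Log2 difference of cKO against control mice for the 32 genes on the uncut (purple) and cut (green) side, with bars of ± 1 standard error. No gene passed an adjusted p of 0.05, and 27 of the 32 purple points lie left of 0 against 13 of the 32 green points.

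The third comparison asked whether injury changed these genes differently in the genotypes. The interaction was called for 0 of the 32 genes with edgeR, DESeq2 and limma-voom, and for 0% of all genes with edgeR. At an unadjusted p under 0.05 edgeR gave 1 of the 32, Srebf2 at 0.12 ± 0.051, beside 9.8% of all genes. The interaction was above 0 (a more positive injury change in cKO mice) for 26 of the 32, with a median of 0.074 beside 0.011 over all genes. The share of all genes with an interaction above 0 was not counted. The 6 genes called in cKO mice and not in control mice in the fit without a mouse block, Acat2, Fdft1, Nsdhl, Sc5d, Acly and Acaca, had interactions of 0.08, 0.07, 0.07, 0.10, 0.12 and 0.13, none of them called. Of these, 4 were called in control mice too in other settings, Acat2 and Sc5d with mouse as a fixed block, Acly with mouse as a random block in limma-voom and Nsdhl with DESeq2 among others. Acat2, Fdft1 and Acaca lost the cKO call without H100, and Acaca also without H64. With mouse as a fixed block the interaction was again called for 0 of the 32 genes and for 0 genes in all, with 6 of the 32 at an unadjusted p under 0.05 beside 11.4% of all genes in that fit. The injury, uncut-side genotype and interaction comparisons share contralateral libraries and are not independent of each other.

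Other genes of lipid metabolism were read from 6 lists of 88 genes, of which 86 were tested. With injury 23 of the 86 were called higher and 13 lower in control mice (26.7% and 15.1%), and 25 higher and 10 lower in cKO mice (29.1% and 11.6%). Of all genes 13.8% were called higher and 16% lower in control mice and 16.2% and 15.1% in cKO mice, so the share called lower in control mice was near that of all genes, and the counts of the smaller lists below are to be read beside these shares. Of 12 genes of glycerolipid synthesis and storage, 6 rose and 2 fell in control mice and 6 rose and 0 fell in cKO mice. Plin2, the coat protein of lipid droplets, went from 45.2 ± 2.03 to 98.3 ± 3.47 CPM in control mice and from 45.8 ± 1.75 to 99.4 ± 5.70 CPM in cKO mice, a log2 change of 1.12 in both. Dgat1, which completes triglycerides, rose by 0.55 and 0.63 on the log2 scale. Among 31 other tested genes of fatty acid metabolism, 8 rose and 6 fell in control mice and 9 rose and 6 fell in cKO mice. Fads3, a desaturase family member, rose by 0.73 and 0.92 and Acsl4, which activates long polyunsaturated fatty acids, by 0.36 and 0.55, while Thrsp, a lipogenic regulator, fell by 0.33 and 0.52 and Mlycd, which breaks down malonyl-CoA, fell by 0.22 and 0.23.

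Of 9 genes of SREBP control 2 rose and 1 fell in control mice and 3 rose in cKO mice. Erlin1, which binds the SREBP complex in the endoplasmic reticulum, rose by 0.37 and 0.44 on the log2 scale. Of 8 genes of oxysterol metabolism and LXR partners, 2 rose and 1 fell in control mice and 2 rose and 2 fell in cKO mice. Ch25h, a cholesterol hydroxylase whose product activates LXR, rose by 0.93 and 0.86 on the log2 scale from a low level, 0.61 ± 0.21 to 1.18 ± 0.196 CPM in control and 0.578 ± 0.127 to 1.06 ± 0.159 CPM in cKO mice. Lpcat3, an LXR target that remodels phospholipids, rose by 0.19 and 0.29, and Rxrg, a retinoid X receptor, fell by 0.38 and 0.59. Of 17 genes of sterol uptake, transport and storage, 3 rose and 3 fell in control mice and 4 rose in cKO mice. Gramd1a, which moves cholesterol from the plasma membrane, rose by 0.29 and 0.42, and Nceh1, which hydrolyses cholesterol esters, by 0.19 and 0.25. Of 9 tested genes of other sterol and isoprenoid steps, 2 rose in control mice and 1 rose and 2 fell in cKO mice, with Nus1, of dolichol synthesis, higher in both by 0.13 and 0.19. Between genotypes none of the 86 was called on either side or in the interaction with edgeR, and 22, 1 and 11 had an unadjusted p under 0.05, beside 17.5%, 2.36% and 9.8% of all genes.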

How the data were processed

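Whole-number exonic counts per gene and library were deposited by the authors without normalization; the RNA had gone into a strand-specific mRNA kit and was sequenced in pairs of 150 bp, per the labels' protocols. HISAT2, Picard and the builds mm10 and mm39 are named in the submitters' processing notes with no role; the counting program, annotation release and strand setting are not given in the sources used here. The authors' deposited FPKM table was not used. Groups and mouse numbers came from the titles and library names: control titles say wildtype where the genotype field gives FF, 1 title gives H6 where the library name gives H61, and 1 field names a spinal cord injury where the protocol describes sciatic nerve transection, which was followed. Symbols came from GENCODE M21 for 51487 of 78258 identifiers.

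Counts were fitted in R 4.3.3 with edgeR 4.0.16: filterByExpr (minimum count 10, minimum total 15), TMM scaling, 1 mean per group in 1 fit of 20 libraries, the robust quasi-likelihood F-test and Benjamini-Hochberg adjustment over 28564 genes, with a gene called at an adjusted p under 0.05. DESeq2 1.42.0, limma-voom (limma 3.58.1), RLE size factors, other filters, a mouse block, the range of mouse numbers, fewer libraries and leaving out each mouse were alternatives. Replicate libraries differed beyond counting error (chi-square per degree of freedom 5.14 to 55.97 over 40 pairs), so that counting error was not what limited the precision. The same mouse number marks the sides of 1 mouse, so the libraries are paired by mouse; across 19365 genes the sides' deviations from group means correlated at a median of 0.308 (-0.16 to 0.668), above 0.1 in 8 of 10 mice. In data simulated for injury in control mice over 28564 genes, the test recovered 12.5% of log2 changes of 0.2, 17.5% of those of -0.2, 75% of those of 0.5 or -0.5 and 95% of those of 1, with 8 false calls. Only 40 genes were given each of these changes, where 8540 genes were called in the data. The adjusted threshold was therefore stricter in the simulation, and these rates may lie below those of the data. Levels per kilobase used merged GENCODE M21 exons. The members and lists were chosen with earlier results of these data known. Values in every library are given for the 8 genes with the largest mean absolute log2 change over both injury comparisons among those called in both in the same direction, and up to 2 genes per list and direction are named from the 6 wider lists by the same measure, at a mean of at least 1 CPM in some group. A gene that this rule would name is not reported here.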

Additional observations from a re-analysis of the deposited data

Results flagged for a closer look

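In each group of 5 libraries a library was marked where its gap to the nearest other library exceeded 0.71 of the group's whole range in CPM. This held for 10 of 128 combinations of gene and group, where chance gives about 6.4 (1 in 20).

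The contralateral cKO library of H64 was low for Insig1 (108 CPM, next 124, ratio of gap to range 0.719) and for Stard4 (106 CPM, next 125, ratio 0.736). Its ipsilateral library was low for Msmo1 (193 CPM, next 222, ratio 0.781) and high for Abca1 (186 CPM, next 143, ratio 0.771). The contralateral control library of H96 was low for Acaca (156 CPM, next 175, ratio 0.754) and Scd1 (1046 CPM, next 1144, ratio 0.739). The ipsilateral control library of H97 was low for Hmgcs1 (583 CPM, next 614, ratio 0.773), and that of H65 for Mylip (11.7 CPM, next 15.1, ratio 0.726). Among ipsilateral cKO libraries H99 was high for Abcg1 (51.7 CPM, next 46.9, ratio 0.725) and H100 was low for Nr1h3 (4.90 CPM, next 5.59, ratio 0.76).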

How the results depend on the processing

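Across the planned settings no change of direction was met among called values. With mouse as a fixed replicate block 17 of the 32 genes were called for injury in control mice (14 without it) and 20 in cKO mice, the 14 and the 20 included, and no other call changed beside Acat2, Sc5d and Dhcr7. Of all genes 14.1% were called higher and 15.9% lower in control mice and 16.4% and 15.2% in cKO mice with the block. This block could not be fitted to the genotype difference on either side; for the interaction it gave 0 calls. Over the other settings the calls were 11 to 19 in control and 19 to 20 in cKO mice, and without each mouse in turn 10 to 18 and 16 to 21. Mvk, Mvd, Cyp51, Stard4 and Fasn lost the control call, and Acat2, Fdft1, Cyp51 and Acaca the cKO call, in at least 1 setting. In at least 1 setting Acat2, Nsdhl, Sc5d, Dhcr7, Srebf1, Srebf2, Acly and Nr1h3 gained a control call and Srebf1 a cKO call. Single-gene results for injury gained a call 30 times and lost it 21 times in control mice, and 1 and 6 times in cKO mice. The cause was not tested. Between genotypes on the uncut side leaving out each mouse gave 0 to 8 calls, 8 without H99; on the cut side and for the interaction every setting gave 0. For all genes the uncut-side count was 21 with edgeR and 1041 with DESeq2, none of them among the 32, 50 with no filter on low counts, 45 with genes under a mean of 1 CPM left out, 2 with the compared libraries alone, and 4 to 3326 without each mouse. The interaction had 11 calls with DESeq2 and 43 without H99. The 14 genes called in both injury comparisons had the same direction within both ranges of mouse numbers. The ranges split the libraries that gave these calls, so this was close to fixed in advance and adds no support. In simulation over genes of all levels 12.5% of log2 changes of 0.2 were recovered, a rate not measured for the 32 genes alone.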
